A study of Homo sapiens with 6 samples.

Results

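Collagens, laminins and integrins are the genes whose symbol in the deposited merged table begins with COL, LAM, ITGA or ITGB in the form used for collagen chains, laminin chains and integrin subunits. They were chosen by symbol and not by their counts. 76 genes met the rule, of 56811 symbols or identifiers in the library tables: 44 collagen chains, 12 laminin chains and 20 integrin subunits. The rule leaves out integrin subunits named by letters other than V, such as ITGAE. The counts come from HEK293T, a human embryonic kidney line that carries the SV40 large T antigen. Of the 6 libraries, 3 came from cells with a nonspecific hairpin (sh-control) and 3 from cells labelled as carrying a hairpin against RREB1 (sh-RREB1). The hairpins were delivered by lentivirus, the cells were grown in DMEM with 10% FBS, and a single RREB1 hairpin is represented. The labels do not say whether the replicates were separate cultures, so the p-values measure the spread between these libraries, which may be technical.

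Collagens are triple helices that build fibrils, networks and filaments of the extracellular matrix. Collagen IV and laminin form the networks of basement membranes, the sheets on which kidney epithelium sits, and laminins assemble from an alpha, a beta and a gamma chain. Integrins are cell-surface receptors made of an alpha and a beta subunit, and they bind collagens, laminins or the RGD sequence of other matrix proteins.

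The collagen IV genes lie in head-to-head pairs that share the DNA between their starts, and COL4A1 and COL4A2 are among the members called below. That DNA is shown for each pair to set them side by side, on the plus strand, from RefSeq on GRCh38.p14. COL4A1 and COL4A2 begin 127 bases apart, and the whole interval (chr13:110307157-110307284) is given. COL4A3 and COL4A4 begin 419 bases apart and COL4A5 and COL4A6 begin 380 bases apart, so only the central 300 bases are given (chr2:227164265-227164564 and chrX:108439498-108439797). Capitals mark 4 motifs, searched on either strand. They are the GC box GGGCGG, the CCAAT box, the TATA box (searched as TATAAA) and a run of letters within the C-rich site known for RREB1, CCCAAAC.
COL4A1 and COL4A2: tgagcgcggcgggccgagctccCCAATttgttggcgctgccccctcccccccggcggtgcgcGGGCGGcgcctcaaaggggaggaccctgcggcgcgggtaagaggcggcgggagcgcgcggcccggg
COL4A3 and COL4A4: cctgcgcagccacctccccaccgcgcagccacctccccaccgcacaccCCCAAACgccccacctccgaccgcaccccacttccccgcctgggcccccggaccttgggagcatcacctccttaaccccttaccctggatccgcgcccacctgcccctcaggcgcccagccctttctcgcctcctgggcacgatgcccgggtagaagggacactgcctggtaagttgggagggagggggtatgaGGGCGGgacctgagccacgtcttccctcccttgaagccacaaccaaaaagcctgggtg
COL4A5 and COL4A6: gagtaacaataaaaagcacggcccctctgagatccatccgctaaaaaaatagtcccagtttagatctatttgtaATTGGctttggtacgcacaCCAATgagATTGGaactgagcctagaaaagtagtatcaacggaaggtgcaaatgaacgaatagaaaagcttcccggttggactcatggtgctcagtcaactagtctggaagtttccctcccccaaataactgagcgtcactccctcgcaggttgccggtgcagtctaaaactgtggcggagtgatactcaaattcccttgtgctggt

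The interval of COL4A1 and COL4A2 was 79.7% GC and held 1 GC box and 1 CCAAT box. The stretch of COL4A3 and COL4A4 was 68.3% GC with 1 GC box and 1 CCCAAAC, and that of COL4A5 and COL4A6 was 46.3% GC with 3 CCAAT boxes and no GC box. Of the promoter windows of RefSeq, which run from 250 bases before a start to 50 after it, 74 belonged to 55 of the members. A GC box stood in 56.8% of these windows and in 45% of all 35116 windows, a CCAAT box in 25.7% and 34.6%, a TATA box in 13.5% and 11.5%, and CCCAAAC in 8.11% and 4.69%. Windows of alternative starts of a gene overlap, and a match describes letters only. The windows of 3 members outside collagen IV that were called with the correction described below are given on the strand of the gene: COL12A1 (chr6:75206004-75206303, minus strand), COL25A1 (chr4:109302609-109302908, minus strand) and ITGA4 (chr2:181457136-181457435, plus strand), with the same motifs in capitals. None of the searched motifs occurs in the ITGA4 window. COL14A1, COL9A3 and LAMB3 were also called with that correction, and their windows are not shown. Each LAMB3 window held 1 GC box.
COL12A1: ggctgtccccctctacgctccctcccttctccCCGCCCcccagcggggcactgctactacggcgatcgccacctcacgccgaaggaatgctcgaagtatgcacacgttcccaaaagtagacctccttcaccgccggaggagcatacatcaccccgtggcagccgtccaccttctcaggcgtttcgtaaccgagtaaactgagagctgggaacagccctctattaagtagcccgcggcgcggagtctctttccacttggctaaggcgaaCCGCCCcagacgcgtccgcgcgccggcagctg
COL25A1: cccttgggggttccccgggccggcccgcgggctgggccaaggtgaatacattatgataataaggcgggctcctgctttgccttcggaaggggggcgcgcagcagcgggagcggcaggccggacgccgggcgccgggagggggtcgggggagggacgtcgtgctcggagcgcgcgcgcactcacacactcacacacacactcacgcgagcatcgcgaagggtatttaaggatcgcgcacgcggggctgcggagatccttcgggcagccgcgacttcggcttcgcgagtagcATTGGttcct
ITGA4: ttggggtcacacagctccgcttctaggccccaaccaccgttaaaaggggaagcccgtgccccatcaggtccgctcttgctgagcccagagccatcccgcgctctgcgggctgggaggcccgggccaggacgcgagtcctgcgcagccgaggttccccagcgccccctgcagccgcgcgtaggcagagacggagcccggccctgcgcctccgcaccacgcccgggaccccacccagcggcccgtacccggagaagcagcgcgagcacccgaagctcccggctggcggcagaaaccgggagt

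Reads counted on genes ranged from 12257054 to 33044061 per library, and in sh-RREB1 replicate 3, the shallowest, 52.1% of aligned reads mapped to several positions, against 3.66% to 7.63% elsewhere. RREB1 itself was at 25.1 to 27.1 CPM (counts per 1000000 reads, scaled by edgeR's TMM method) in sh-control and at 23.1 to 24.6 CPM in the libraries labelled sh-RREB1, which on the log2 scale is −0.14 (edgeR adjusted p = 0.489, exact permutation p = 0.1, the smallest that 3 against 3 allows). With the correction described below it was −0.36 (edgeR adjusted p = 0.0539). RREB1 was called in neither fit, and each direction below rests on the labels. SALL1 and the neurofilaments NEFL and NEFM, which HEK293 lines express, were present in every library with 399 to 1231 reads. PAX2 had 3 to 10 reads and PAX8 at most 1.

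Over all 23617 genes with at least 10 reads in total, edgeR called 798 genes (3.38%). A call needed an adjusted p under 0.01 together with a change of more than 1 on the log2 scale. Of these calls 79.6% were higher in sh-RREB1. Genes with GC-rich exons had larger log2 fold changes across 14479 genes of at least 1 CPM (Spearman's rho 0.593, across genes, which share libraries). A second fit therefore removed from each library its trend on GC content and exonic length. It called 714 genes (3.02%), 60.5% of them higher, and rho fell to 0.00644. Since the trend differs between the groups, the correction can also remove a difference that follows GC content, so the corrected value is given beside the uncorrected one.

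The members were detected unevenly. 47 of the 76 had a mean of at least 1 CPM, 67 had the 10 reads needed for a test, and ITGB7 had no read in any library, which allows at most 0.0933 to 0.237 CPM (3 reads). The 9 members without a test were COL5A3, COL9A1, COL10A1, COL17A1, COL20A1, COL21A1, COL22A1, ITGB2 and ITGB7. ITGB2 and ITGB7 are the beta subunits of leukocytes, and PTPRC, CD3E and SPI1, which define leukocytes, had at most 5 reads in any library. To compare genes, levels are given per length, as CPM per kilobase of exon (RPKM). The length is that of all annotated exons of a gene together, so a gene with many annotated isoforms reads low on this scale.

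The laminin gamma chain LAMC1, a part of most laminins, had the highest level of all members, with 48.3 ± 1.9 RPKM (SD, n = 3) in sh-control. Next came ITGB1, the beta subunit of most matrix receptors, at 15.1 ± 0.521 RPKM. The alpha subunits followed with ITGA6, a laminin receptor, at 9.98 ± 0.201 RPKM and ITGAV, a vitronectin receptor, at 8.79 ± 1.06 RPKM, which differ by about their spread. ITGA2, a collagen receptor, was at 5.39 ± 0.583 RPKM and ITGA8, the nephronectin receptor of kidney development, at 4.3 ± 0.57 RPKM.

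Among collagens COL4A5 was highest in sh-control at 7.61 ± 1.33 RPKM, followed by COL14A1 at 3.21 ± 0.0374, COL4A6 at 2.89 ± 0.614, COL2A1 at 2.88 ± 0.528 and COL25A1 at 1.84 ± 0.106 RPKM. COL14A1, COL4A6 and COL2A1 do not differ in this order beyond their spread. The laminin beta chains LAMB1 at 4.86 ± 0.394 and LAMB2 at 4.42 ± 1.9 RPKM likewise do not, and the alpha chains LAMA4 at 2.78 ± 0.117 and LAMA3 at 2.27 ± 0.055 RPKM stood below LAMB1. In sh-control replicate 1 LAMB2 was at 2.27 RPKM, below LAMA4 at 2.77. The fibril-forming chains COL1A1 and COL3A1, typical of fibroblasts, were at 0.0531 and 0.49 RPKM on average there.

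**Figure D1:**
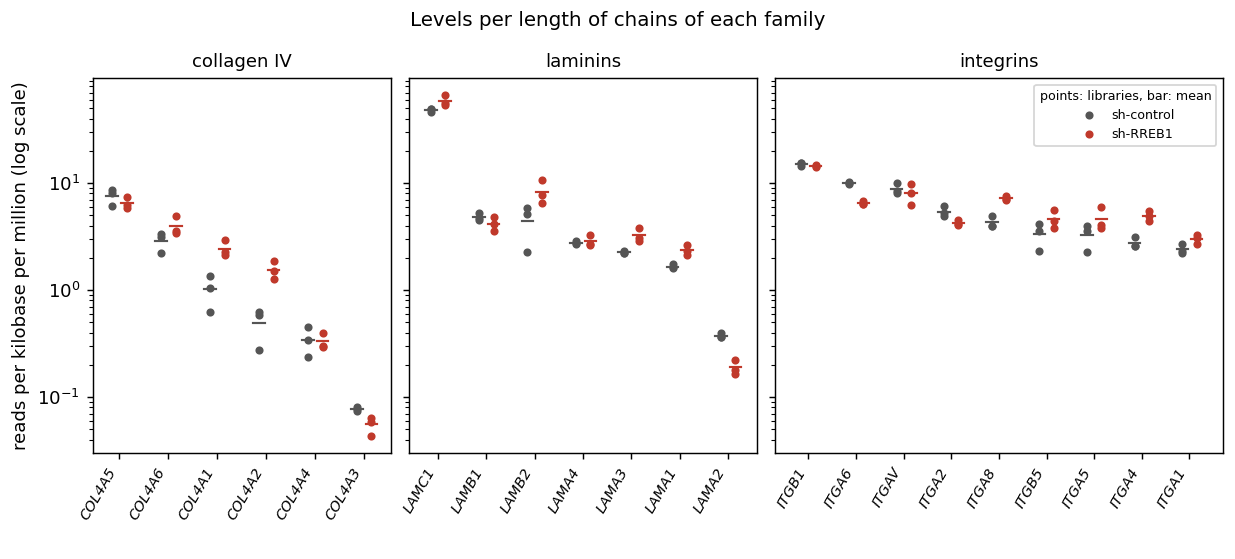
Levels per length (RPKM, log scale) of collagen IV, laminin and integrin chains in the 3 sh-control and 3 sh-RREB1 libraries. Points are libraries and bars are group means. LAMC1 lies highest, at 48.3 in sh-control. Within collagen IV the sh-RREB1 points of COL4A1, COL4A2 and COL4A6 lie above those of sh-control and those of COL4A3 lie below. The points of COL4A5 and COL4A4 overlap.

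5 of the 67 members tested were called, all of them higher in the libraries labelled sh-RREB1, where 2.69% of all genes were called higher. They were the collagens COL14A1, COL4A2, COL6A1 and COL2A1 and the laminin LAMB3. No member was called lower (edgeR; 0.690% of all genes), and DESeq2 also called none lower. At an unadjusted p under 0.05, 6 members were lower, against 15.7% of all genes. The correction called 8 members, 7 of them higher, against 1.83% of all genes called higher. COL14A1, COL4A2 and LAMB3 were called in both fits. COL4A1, COL12A1, COL25A1 and ITGA4 were called higher and COL9A3 lower only with the correction, and COL2A1 and COL6A1 only without it, a change of call that is not itself a test. DESeq2 called 11 members, against 7.01% of all genes.

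The median log2 fold change of the 67 members was 0.51, against 0.01 for all genes tested, and with the correction it was 0.12 against −0.03. Leaving out sh-control replicate 1 brought the corrected median to 0.06, and leaving out sh-RREB1 replicate 2 brought it to 0.05. The markers of HEK293 cells and kidney lineage were higher as well, in 9 of 9 tested, where 12024 of all 23617 genes were higher. Their median was 0.67. With the correction 8 of the 9 markers were higher, with a median of 0.42, where 11283 of all genes were. The part of these markers in the result was not tested. In 32 members every library labelled sh-RREB1 lay above every sh-control library and in 7 every one lay below, while this held for 21.0% and 19.9% of all genes. By family, the median was 0.96 in the 37 collagens tested, 0.51 in the 12 laminins and 0.10 in the 18 integrins, and with the correction 0.21, 0.23 and 0.00.

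**Figure D2:**
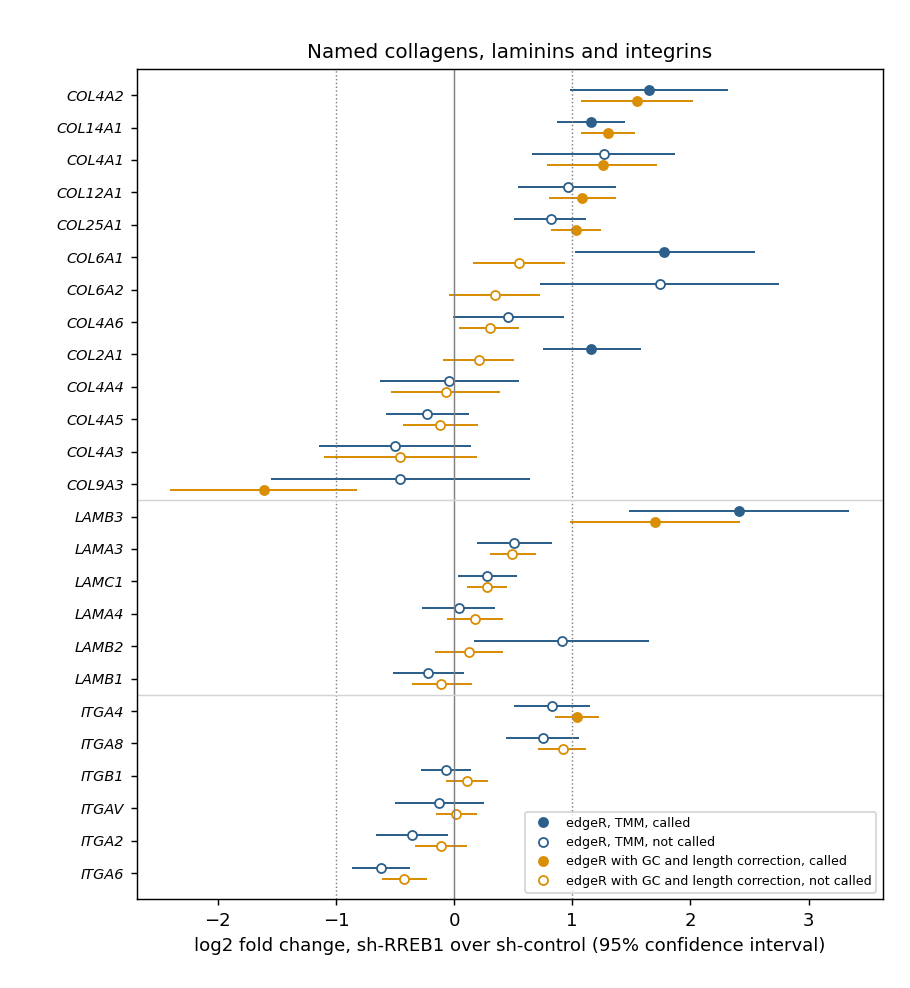
Log2 fold change of each named member in the libraries labelled sh-RREB1 over sh-control, with its 95% confidence interval, from edgeR without (blue) and with (orange) the GC and length correction. Filled points were called and dotted lines mark changes of 1 on the log2 scale. COL4A2, COL14A1 and LAMB3 are filled in both fits, and COL6A1 and COL2A1 move from 1.78 and 1.16 to 0.55 and 0.21.

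The members followed GC content, as genes at large did. Among those with exons of at least 55% GC, 22 of 23 had a positive log2 fold change, with a median of 1.08, and 13 of 23 were positive with the correction, with a median of 0.08. Among the 44 members under 55% GC the median was 0.12 and stayed at 0.15 with the correction. Spearman's rho between GC content and log2 fold change over the 67 members was 0.474 and fell to −0.0618 with the correction. Over the 47 members of at least 1 CPM rho was 0.615, near the 0.593 of all genes of that level. With the correction it was 0.0543 against 0.00644. The matching counts of GC-rich genes outside the members are not given here. The genes share their libraries, so these values describe and do not test. In 20 of the 23 GC-rich members the lowest of the sh-control libraries was replicate 1, against 21 of the 44 others.

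**Figure D3:**
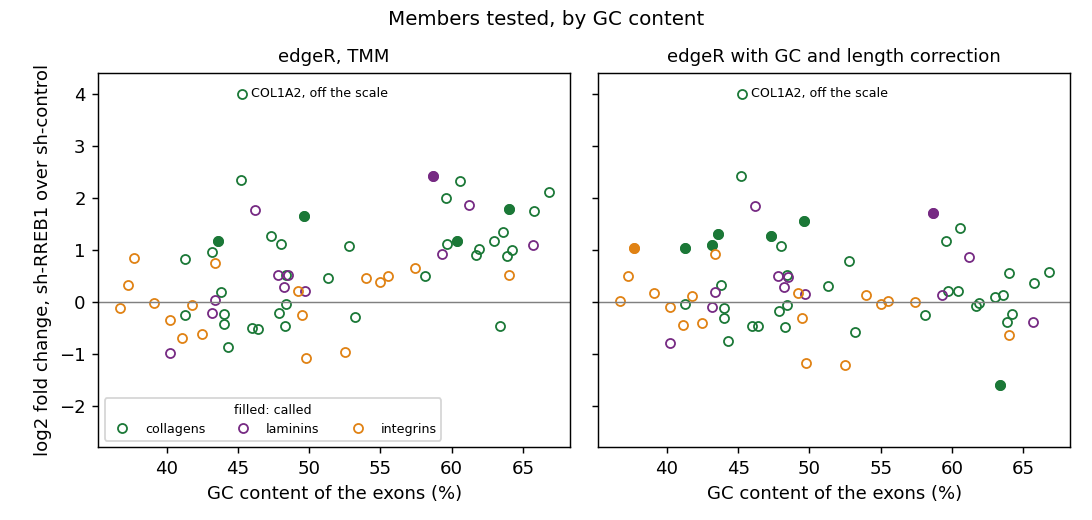
Log2 fold change of the 67 members tested against the GC content of their exons (%), without (left) and with (right) the GC and length correction. Colours give the family and filled points were called. On the left 22 of the 23 members of at least 55% GC lie above 0, and on the right 13 of the 23 do. COL1A2 lies beyond the axis, on 1 library.

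Collagen IV changed in part. Its COL4A1 and COL4A2 chains form the network found in nearly all basement membranes. COL4A2 (ENSG00000134871, GRCh38 chr13:110305812-110513209) had 5.29, 11.2 and 12 CPM in sh-control replicates 1, 2 and 3 against 29, 36.2 and 24.5 in sh-RREB1. The lowest of the latter was above the highest sh-control library, and sh-control replicate 1 was the lowest of all. The log2 fold change was 1.65 ± 0.30 (SE; edgeR adjusted p = 0.00854) and with the correction 1.55 ± 0.22 (adjusted p = 0.00061).

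COL4A1 (ENSG00000187498, chr13:110148963-110307157) had 9.24, 15.4 and 19.9 CPM in sh-control against 31, 43.3 and 33.1 in sh-RREB1, again without overlap. Its log2 fold change was 1.27 ± 0.27 (SE; edgeR adjusted p = 0.0143, above the threshold) and with the correction 1.26 ± 0.21 (adjusted p = 0.00175). In Gencode 44, which begins COL4A2 further upstream than RefSeq, the genes overlap on opposite strands, and the counts used are those on the strand of the gene. COL4A2 was called in 1 of 6 fits with a library left out, where its adjusted p reached 0.0394, and with the correction in 6 of 6, and COL4A1, corrected, in all cases except without sh-RREB1 replicate 3, where its adjusted p was 0.0104.

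COL4A5 and COL4A6, which join in other basement membranes of the kidney and of smooth muscle, did not pass. COL4A5 had 72.5, 96.4 and 102 CPM in sh-control against 69.7, 87.5 and 74.8 in sh-RREB1, overlapping, with a log2 fold change of −0.23 (95% confidence interval −0.58 to 0.13) and of −0.12 with the correction. COL4A6 had 20.4, 28.8 and 31.2 CPM in sh-control against 31.4, 45.9 and 33.3 in sh-RREB1, narrowly without overlap. Its log2 fold change was 0.46 (−0.01 to 0.93), and 0.30 with the correction. COL4A3 and COL4A4, chains of the mature glomerular basement membrane, were low. COL4A3 had 10 to 29 reads in each library and a log2 fold change of −0.50 (−1.14 to 0.14, and −0.46 with the correction). Its CPM values were lower in every sh-RREB1 library than in any sh-control library. COL4A4 had 44 to 170 reads and a log2 fold change of −0.04 (−0.63 to 0.55, and −0.07 with the correction), a sign that turned in several alternatives.

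The balance between these networks was higher in each sh-RREB1 library than in any sh-control library. Per length, COL4A1 and COL4A2 together came to 0.109, 0.145 and 0.165 of COL4A5 and COL4A6 in sh-control and to 0.391, 0.392 and 0.357 in sh-RREB1. The ratio does not overlap between groups, with or without the correction (exact permutation p = 0.1, the smallest possible here, adjusted p = 0.125 over 10 ratios compared). COL4A1 over COL4A2 was 2.09 ± 0.256 in sh-control and 1.58 ± 0.185 in sh-RREB1 (SD, n = 3; exact permutation p = 0.1), and with the correction the groups overlapped.

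COL14A1 and COL12A1 belong to the FACIT collagens, which sit on the surface of fibrils. COL14A1 (ENSG00000187955) had 33, 32.3 and 32.9 CPM in sh-control against 66, 83.6 and 69.9 in sh-RREB1, groups that lie well apart. Its log2 fold change was 1.16 ± 0.13 (SE; edgeR adjusted p = 0.00216) and with the correction 1.3 ± 0.10 (adjusted p = 3e-05). With a library left out it was called in 3 of 6 fits, where its adjusted p reached 0.0256, and with the correction in 6 of 6.

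COL12A1 (ENSG00000111799, chr6:75084326-75206267), a close relative of COL14A1, had 29.8, 21.3 and 22.7 CPM in sh-control against 41.5, 57.7 and 44.1 in sh-RREB1, without overlap. Its log2 fold change was 0.96 ± 0.18 (edgeR adjusted p = 0.0105), and with the correction 1.08 ± 0.13 (adjusted p = 0.000246). Without sh-RREB1 replicate 2 the corrected value was 0.95, under the fold threshold. COL9A3, a cartilage chain, was called lower with the correction alone, at −1.61 ± 0.36 (adjusted p = 0.00836). It rests on 6, 29 and 30 reads in sh-control against 13, 13 and 9 in sh-RREB1, groups that overlap, and without the correction its log2 fold change was −0.46. With a library left out it kept the call only without sh-control replicate 1, and its adjusted p reached 0.053 without sh-control replicate 2.

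COL25A1 (ENSG00000188517, chr4:108808725-109302752), a transmembrane collagen first known from amyloid plaques, had 17.1, 15.9 and 15.3 CPM in sh-control against 28.6, 27.3 and 29.2 in sh-RREB1. Both groups were tight and well apart. The log2 fold change was 0.82 ± 0.13 (edgeR adjusted p = 0.00647, under the fold threshold) and with the correction 1.03 ± 0.10 (adjusted p = 5.67e-05), a call kept with any library left out. Uncorrected it was called in none of these fits.

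**Figure D4:**
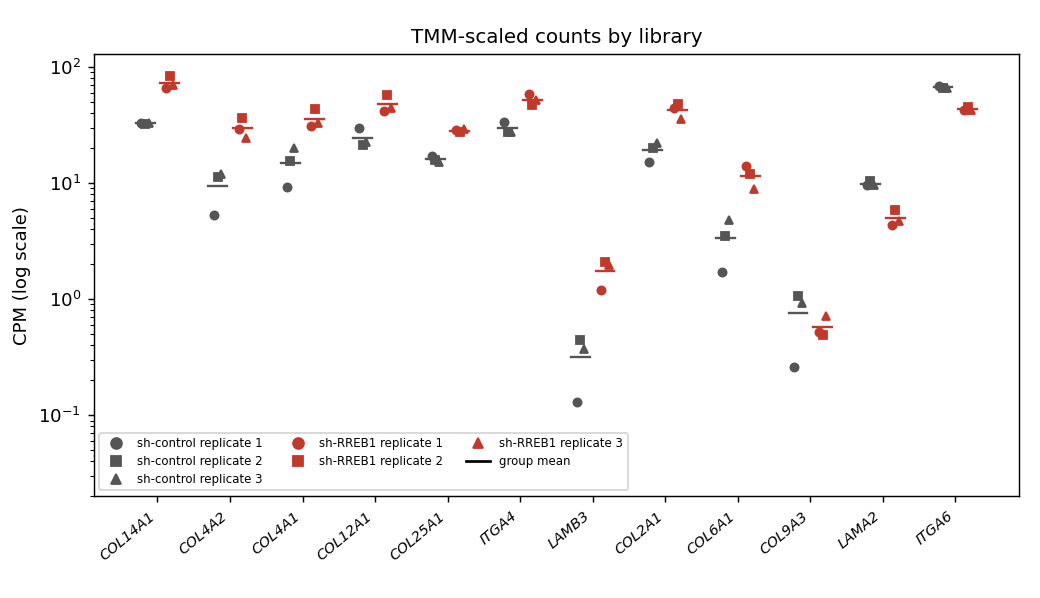
CPM (log scale) of 12 members in each library, sh-control in grey and sh-RREB1 in red, with symbols for the replicates and bars for group means. In every member shown except COL9A3 the groups do not overlap, and LAMA2 and ITGA6 lie lower in sh-RREB1. Sh-control replicate 1 lies lowest for COL4A2, COL6A1 and LAMB3.

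The fibrillar collagen COL2A1 and the collagen VI chain COL6A1 were called without the GC and length correction and not with it. COL2A1 (ENSG00000139219, chr12:47972967-48004554), the main collagen of cartilage, had 15.3, 20.1 and 22.1 CPM in sh-control against 44.5, 48.2 and 35.9 in sh-RREB1. Its log2 fold change was 1.16 ± 0.18 (edgeR adjusted p = 0.00551), and with the correction 0.21 ± 0.14 (adjusted p = 0.316). Its exons are 60.4% GC. It was called in none of the fits with a library left out, where the adjusted p ran from 0.00216 to 0.0368.

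COL6A1 and COL6A2 join COL6A3 in the beaded filaments around cells. COL6A1 (ENSG00000142156, chr21:45981770-46005050) had 1.73, 3.53 and 4.79 CPM in sh-control against 14, 12 and 8.86 in sh-RREB1, with a log2 fold change of 1.78 ± 0.34 (SE; edgeR adjusted p = 0.00977) and of 0.55 ± 0.18 with the correction (adjusted p = 0.0445). COL6A2 had 1.13, 3.6 and 5.66 CPM and then 11.9, 13.6 and 9.57 CPM, with 1.74 ± 0.44 (adjusted p = 0.0277) and 0.35 ± 0.18 with the correction (adjusted p = 0.192). COL6A2 did not pass in either fit. The uncorrected call of COL6A1 was kept in 2 of 6 fits with a library left out, and was lost with filterByExpr (edgeR adjusted p = 0.0103) and with both strands together (0.0118). The exons of COL6A1 and COL6A2 are 64% and 65.8% GC. Of the other collagen VI chains tested, COL6A3 had a log2 fold change of 1.11 (1.06 with the correction), COL6A5 of 0.19 (0.32) and COL6A6 of −0.52 (−0.47), none of them called. Per length, COL6A1 over COL6A2 was 1.08 ± 0.354 in sh-control and 0.957 ± 0.153 in sh-RREB1 (SD, n = 3; exact permutation p = 0.7).

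1 library stood apart for some collagens, which are named here after their values were seen. COL1A2, the partner of COL1A1 in collagen I, had 103 reads in sh-RREB1 replicate 2, 1 in replicate 3 and none in the other 4 libraries. MGP and KRT19 were the other genes with at least 10 reads there and at least 10 times the CPM of any other library. COL3A1 had 221 reads there against 30 to 111 elsewhere, and COL11A1 had 18 against 0 to 3. The 7 fibroblast markers summed to 2.75 to 3.33 CPM in sh-control against 3.74, 5.46 and 3.8 in sh-RREB1. DCN (17 reads), LUM (35) and POSTN (30) were highest in sh-RREB1 replicate 2, while THY1 and FAP had at most 2 reads anywhere. PDGFRA and PDGFRB, also in the list, held part of the sum, and their reads are not given here. All 5 markers tested had a positive log2 fold change, but none was called and in none did the groups lie apart. Their part in the result was not tested. In bulk RNA a change in the share of a cell type and a change in its RNA per cell cannot be told apart. Without sh-RREB1 replicate 2 the log2 fold change of COL3A1 was −0.25 in place of 0.52 and that of COL6A3 0.64 in place of 1.11, and neither was called with it.

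The laminin called was a minor chain. LAMB3 (ENSG00000196878, chr1:209614870-209652425), the beta chain of the laminin that anchors epidermis, had 3, 12 and 12 reads in sh-control against 30, 55 and 25 in sh-RREB1. This is 0.13, 0.441 and 0.373 CPM against 1.21, 2.1 and 1.98 CPM, without overlap. The log2 fold change was 2.41 ± 0.41 (edgeR adjusted p = 0.00712), and with the correction 1.70 ± 0.33 (adjusted p = 0.00378). At these counts the call is sensitive to single libraries. Uncorrected it was kept in 1 of 6 fits with a library left out, and with the correction it was lost without sh-control replicate 3, sh-RREB1 replicate 2 or sh-RREB1 replicate 3, with adjusted p of 0.0177, 0.0164 and 0.0191. Its partner LAMA3 had 32.5, 32.5 and 33.9 CPM in sh-control against 41.6, 55.1 and 44.3 in sh-RREB1 (log2 fold change 0.51 ± 0.14, edgeR adjusted p = 0.0356), and with the correction 0.49 ± 0.09 (adjusted p = 0.00243).

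None of the abundant laminin chains was called in either fit. LAMC1 had 390, 414 and 420 CPM in sh-control against 450, 558 and 477 in sh-RREB1, without overlap. Its log2 fold change was 0.28 ± 0.11 (SE, edgeR adjusted p = 0.111), and 0.28 ± 0.08 with the correction (adjusted p = 0.0264). LAMB1 had 84.5, 88.2 and 98.6 CPM and then 66.6, 88.7 and 77.2 CPM, overlapping (−0.22 ± 0.13, and −0.11 ± 0.12 with the correction), and LAMA4 had 33.2, 32 and 34.8 CPM and then 32, 39.3 and 31.4 CPM (0.04 ± 0.14, and 0.18 ± 0.11 with the correction). LAMB2, whose exons are 59.3% GC, had 15.6, 35.1 and 40.3 CPM in sh-control against 44.5, 73.3 and 53.6 in sh-RREB1, without overlap. Its log2 fold change was 0.91 ± 0.33 (edgeR adjusted p = 0.0821), and 0.13 ± 0.13 with the correction.

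LAMA2, the alpha chain of muscle laminin, was lower in every sh-RREB1 library. It had 9.59, 10.4 and 9.58 CPM in sh-control against 4.38, 5.84 and 4.75 in sh-RREB1, with a log2 fold change of −0.98 ± 0.18 (SE; edgeR adjusted p = 0.00887), short of the fold threshold, and −0.79 ± 0.16 with the correction (adjusted p = 0.0052). It is named after its values were seen. LAMC1 over LAMB1, per length, was 9.96 ± 0.517 in sh-control and 14.1 ± 0.682 in sh-RREB1 (SD, n = 3; exact permutation p = 0.1, adjusted p = 0.125 over the 10 ratios), without overlap in either fit.

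Of the 18 integrins tested edgeR called none, DESeq2 called none, and 7 had an unadjusted p under 0.05, 3 higher and 4 lower, where 34.2% of all genes had one. With the correction 1 was called, ITGA4 (ENSG00000115232, chr2:181457202-181538940), which pairs with ITGB1 or ITGB7 to bind fibronectin and VCAM1. It had 33.4, 27.7 and 27.7 CPM in sh-control against 58.2, 47.4 and 51.9 in sh-RREB1, without overlap. Its log2 fold change was 0.83 ± 0.14 (edgeR adjusted p = 0.00718), and with the correction 1.04 ± 0.09 (adjusted p = 3.59e-05). Uncorrected it was called in no fit with a library left out. Without sh-RREB1 replicate 2 the corrected value was 0.99, just under the fold threshold.

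ITGA8 had 36.3, 29.3 and 28.9 CPM in sh-control against 52.2, 55.6 and 51 in sh-RREB1, a log2 fold change of 0.75 ± 0.14 (SE; edgeR adjusted p = 0.0088) and of 0.92 ± 0.09 with the correction (adjusted p = 0.000104), which passed the adjusted p but not the fold. ITGA6 was lower, with 68.1, 66.4 and 65.5 CPM and then 42.8, 45.1 and 42.3 CPM, with a log2 fold change of −0.62 ± 0.11 (adjusted p = 0.00764) and −0.42 ± 0.09 with the correction (adjusted p = 0.00528). ITGA4 over ITGA6, per length, was 0.307, 0.261 and 0.266 in sh-control and 0.852, 0.659 and 0.770 in sh-RREB1.

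Of the collagen-binding alpha subunits, ITGA2 had 47.7, 41.4 and 38.7 CPM in sh-control against 31.8, 32.4 and 35.7 in sh-RREB1. Its log2 fold change was −0.36 ± 0.13 (edgeR adjusted p = 0.0966), and −0.11 ± 0.10 with the correction. Its neighbour on chromosome 5, ITGA1, had 50, 42.9 and 41.6 CPM and then 61.1, 49.6 and 57.4 CPM, a log2 fold change of 0.32 ± 0.13 (SE; edgeR adjusted p = 0.128) and of 0.50 ± 0.08 with the correction (adjusted p = 0.00155). It is named after its values were seen. Per length ITGA1 over ITGA2 was 0.448 ± 0.00872 in sh-control and 0.718 ± 0.0889 in sh-RREB1 (SD, n = 3, exact permutation p = 0.1). The other collagen-binding subunits, ITGA10 and ITGA11, had few reads, 9 to 50 and 1 to 18 in each library. Both were lower in sh-RREB1 without overlap and neither was called. Their log2 fold changes were −0.97 and −1.09, and −1.21 and −1.18 with the correction. They too are named after their values were seen. ITGB1, the partner of all these alpha subunits, had 223, 225 and 211 CPM and then 209, 214 and 205 CPM, with a 95% confidence interval of the log2 fold change from −0.28 to 0.14, and 0.11 with the correction. ITGAV had 193, 162 and 155 CPM and then 188, 122 and 157 CPM (interval −0.50 to 0.25, and 0.02 with the correction). The sign of both turned with the correction.

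Genes that act with these chains were counted in 6 lists, and 6 of the 118 tested were called, all higher, where 2.69% of all genes were called higher. Of 31 genes of collagen biosynthesis and crosslinking 1 was called, COLGALT1, a collagen galactosyltransferase (log2 fold change 1.17, edgeR adjusted p = 0.00702; 0.58 with the correction). Of 25 other matrix ligands 2 were called. Tenascin C (TNC) had 2.6, 3.05 and 3.7 CPM in sh-control against 10.6, 18.6 and 13.2 in sh-RREB1, with a log2 fold change of 2.18 ± 0.25 (adjusted p = 0.00245) and of 1.96 ± 0.16 with the correction. The other was thrombospondin 2 (THBS2), below 1 CPM on average and named after its values were seen, with 2, 2 and 5 reads against 28, 43 and 19.

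Of 29 genes of the integrin adhesome 1 was called, zyxin (ZYX, log2 fold change 2.10, edgeR adjusted p = 0.00475; 0.95 with the correction). Of 13 other receptors of collagen and laminin 2 were called, the syndecan SDC1 (1.76, adjusted p = 0.00367; 0.93 with the correction) and the collagen uptake receptor MRC2 (2.09, adjusted p = 0.00915; 0.91 with the correction). Of 15 matrix metalloproteinases and inhibitors none was called by edgeR and DESeq2 called 1, and 6 had an unadjusted p under 0.05, all higher, against 18.5% of all genes. Where 3.02% of all genes were called with the correction, the lists held 4 calls among 118 genes tested. These were TNC, THBS2 and CD44 higher and fibulin 5 (FBLN5) lower, CD44 having at most 43 reads in any library. FBLN5 had 6.98, 5.29 and 6.16 CPM in sh-control against 2.05, 3.44 and 3.64 in sh-RREB1 (corrected log2 fold change −1.10, adjusted p = 0.00341).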

How the data were processed

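RNA-seq of 6 HEK293T libraries was analysed. The authors aligned the reads with STAR (2.4.2a) to hg38 with Gencode 25. They deposited unnormalized counts of reads per gene, 1 table a library with an unstranded and 2 stranded columns, and a merged table. The sense-strand column was analysed, as the labels name a stranded total RNA kit, and equals the merged counts. Reads on no gene or on several genes were left out of library sizes. Where identifiers shared a symbol, the one with most reads stood for it, and genes with under 10 reads in total were left out, as in the study's methods.

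Tests were made with edgeR 4.0.16 (quasi-likelihood, TMM, condition only, Benjamini-Hochberg over all genes tested, prior count 0.5) in R 4.3.3, and single values with exact permutation tests, two-sided (scipy 1.17.1). The GC and length correction removes natural splines of 5 degrees of freedom, fitted per library, as an offset. Gencode 44 gave the coordinates, lengths and GC content of exons, and 98.7% of the genes tested had a value. Alternatives were DESeq2 1.42.0, 2 other scalings, other filters, strands, thresholds, the replicate number as a block, and each library left out.

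The members were taken by symbol and not by their counts, but this rule, the lists and the tests were chosen with earlier results of these data known. Values are given for every member called in either fit, the 5 with the highest RPKM in sh-control in each family, and 4 chain pairs of collagen IV and VI. Others are named where so stated. The most similar replicates, numbers 2 and 3 of sh-control, still differed by more than sampling noise (chi-square per degree of freedom 4.7 over genes). For sh-control replicate 1 against replicates 2 and 3 it was 48.5 and 60.6, and between sh-RREB1 libraries it was 14.1 to 54.4. All libraries were kept, and such a spread does not show that they came from separate cultures. Depth limits the members under 1 CPM most, and bounds at 3 reads cover counting error only. The ChIP-seq of the study was not analysed here, and some genes are not reported here.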

Additional observations from a re-analysis of the deposited data

Results flagged for a closer look

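Reads on the strand opposite to a member were not used in the comparisons. On 2 members they were at least 2 times higher in the libraries labelled sh-RREB1 than in sh-control, without overlap and with at least 10 reads in each of those libraries. On LAMA5, the alpha chain of many epithelial laminins, they came to 0.39, 1.36 and 2.36 CPM in sh-control against 8.28, 10.6 and 6.8 in sh-RREB1, a ratio of means of 6.24, and made up 79.5% of the reads of both strands. The annotation places ADRM1 and LAMA5-AS1 there on that strand. On COL18A1, whose C-terminal fragment is endostatin, they came to 0.347, 1.07 and 1.21 CPM in sh-control against 3.9, 3.82 and 4.35 in sh-RREB1, a ratio of 4.6. COL18A1-AS1, COL18A1-AS2 and SLC19A1 lie there on that strand. The differences were not tested. On their own strand LAMA5 had a log2 fold change of 1.08 (−0.39 with the correction) and COL18A1 of 2.10 (0.57 with the correction); their exons are 65.7% and 66.8% GC. Groups of 3 libraries are too small for a search for outlying libraries.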

How the results depend on the processing

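The 5 calls among the members became 8 with the GC and length correction, 11 with DESeq2, 10 with upper-quartile scaling, 12 with a minimum of 1 read, 13 at an adjusted p below 0.05 and 10 with no minimum fold change. With a library left out they ran from 0 to 9, and from 4 to 8 with the correction as well. None was left without sh-control replicate 2, sh-RREB1 replicate 1 or sh-RREB1 replicate 3, where edgeR called 9, 37 and 11 of all genes, so the loss is shared by all genes. RLE scaling, filterByExpr, both strands together and the merged table gave 5 to 7. The 6 calls in the lists became 18 with DESeq2, 10 with upper-quartile scaling, 18 with a minimum of 1 read, 10 with filterByExpr, 10 with the genes of the merged table and 19 at an adjusted p below 0.05, and ran from 0 to 8 with a library left out (2 to 4 with the correction as well). With the replicate number as a block, members called rose to 12 and list genes to 17. With the block and the correction members came to 10. Calls over all genes rose too, from 798 to 1707 with the block and from 714 to 883 with the block and the correction. They came to 1656 with DESeq2, 1060 with upper-quartile scaling and 1829 of 33511 genes with a minimum of 1 read. Both block fits and the minimum of 1 read called COL1A2, whose reads lie almost all in sh-RREB1 replicate 2. Deviations of same-numbered libraries correlated at 0.50, 0.434 and −0.275 over 14442 genes and not every library was closest to its own number, so the numbers were not taken to pair the samples. RREB1 stayed under 0 and uncalled throughout, from −0.44 to −0.08. Of 25 named members, 5 turned sign in some setting. COL4A4 came to 0.01 with filterByExpr, 0.04 with both strands and 0.00 with the block, and ran from −0.28 to 0.17 with a library left out. ITGAV came to 0.02 and ITGB1 to 0.11 with the correction, with or without the block. With a library left out, ITGAV ran from −0.29 to 0.02 and, corrected, from −0.01 to 0.06, with 0.03 without sh-RREB1 replicate 3. ITGB1 ran from −0.13 to −0.05 and, corrected, from 0.06 to 0.16, with 0.13, 0.08 and 0.12 without sh-RREB1 replicates 1, 2 and 3. LAMA4 came to −0.06 with upper-quartile scaling and ran from −0.07 to 0.10, and LAMB2, from 0.56 to 1.13 uncorrected, came to −0.00 with the correction without sh-control replicate 1. The cause of these shifts was not tested. Depth limits members of few reads, such as LAMB3 and COL9A3.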

Other observations

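Integrin subunits that the symbol rule leaves out include those of leukocytes. Of 6 such genes, ITGAL, ITGAM, ITGAX and ITGAD had at most 10 reads in any library, and ITGA2B, the platelet fibrinogen receptor, had 16 to 52. ITGAE, which with ITGB7 binds E-cadherin, was well expressed, with 30.2, 32.3 and 32 CPM in sh-control against 23.9, 25.4 and 21.8 in sh-RREB1. The groups did not overlap, and the log2 fold change was −0.41 ± 0.13 (edgeR adjusted p = 0.0597) and −0.65 ± 0.11 with the GC and length correction (adjusted p = 0.0017), neither past the fold threshold. ITGB7 itself had no read on its own strand and 332 on the opposite one, where ZNF740 is annotated.

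Among genes used to check the cell line, EYA1, a factor of early kidney development, was called higher in both fits, with 9.89, 8.89 and 10 CPM in sh-control against 32.8, 34.1 and 35.7 in sh-RREB1 (log2 fold change 1.83 ± 0.14, edgeR adjusted p = 0.000668). KDR, an endothelial receptor also seen here, was called lower without the correction, at −1.05 ± 0.19 (adjusted p = 0.00862), and was at −0.99 with it. The other 4 endothelial markers had at most 10 reads in any library. MYOD1, MYOG, MYH11, DES and CNN1, markers of muscle, had at most 19 reads.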
